A study of Mus musculus with 24 samples.

Results

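A set of 10 genes around the FoxO transcription factors, the alpha-arrestin Txnip and the insulin receptor substrates were followed in TM3 cells, a mouse Leydig cell line, after exposure to a nanosecond pulsed electric field (nsPEF) or after sham handling. The members, set by name with earlier results of these data known, were Txnip, Arrdc3, Arrdc4, Irs1, Irs2, Pik3ip1, Foxo1, Foxo3, Sesn3 and Bcl6. They were found through the RefSeq transcript that the scanner files give for each probe. They made 10 of 23787 named genes and 14 of 56605 probes, and 12 of their probes, for 9 genes, were bright enough to be tested. Each member probe was a single spot on the array.

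Labelled cRNA made from total RNA was hybridized to 24 Agilent arrays, with 4 biological replicates in each of 6 groups: sham (S0, S4, S24) and nsPEF (E0, E4, E24) at 0, 4 and 24 h. Every cell, sham included, had been washed in the cold, suspended in binding buffer and held in an electroporation cuvette. The exposed cells then received 80 pulses of 60 ns at 14 kV/cm over 180 s. There was no group left in culture without this handling, and TM3 is a single established line, so the replicates measure the spread of that line. The cells of one time lay on the same slide, with sham on one row of arrays and nsPEF on the other, so that time and slide, and exposure and place on the slide, cannot be told apart. Levels are log2 intensities relative to the 75th percentile of their array, a percentile that stood between 202 and 533 intensity units. Probes well above background made up 57.5% to 62.1% of those on the sham arrays and 51.2% to 57.2% on the nsPEF arrays, and the part of that difference in the results was not tested. Arrays of a group correlated with r from 0.979 to 0.992 over 36 pairs. Of the Leydig cell markers, Star, Cyp17a1 and Nr5a1 were well above background on 24 arrays, while Cyp11a1, Hsd3b6, Hsd17b3 and Lhcgr were so on 0 arrays. Of the Sertoli cell markers, Sox9 and Wt1 were well above background on 24 arrays, and Amh, Dhh and Fshr on at most 2. Of the macrophage markers, Csf1r was so on 24 arrays, and Ptprc and Adgre1 on at most 1. Of the endothelial markers, Pecam1 was so on 24 arrays and Cdh5 on 0. Of the fibroblast or myoid markers, Pdgfra, Col1a1 and Acta2 were so on 24 arrays and Myh11 on 17. Of the germ cell markers, Ddx4 was so on 16 arrays, Dazl on 2 and Sycp3 on 1. In such bulk RNA, fewer cells of a kind and less RNA in each cell cannot be told apart.

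The genes belong to connected circuits of growth factor and nutrient signalling. Insulin and related factors act through the adaptor proteins Irs1 and Irs2 on phosphoinositide 3-kinase and Akt, and Akt phosphorylates the FoxO proteins, which then leave the nucleus. FoxO proteins in the nucleus switch on genes that slow growth, damp the kinase or restore insulin sensitivity, among which Irs2, Pik3ip1, Sesn3 and Bcl6 are known examples. Txnip, which binds thioredoxin and lowers glucose uptake, and its relative Arrdc4 are known targets of the glucose sensor MondoA with its partner Mlx. TM3 cells come from the steroid-making interstitial cells of the testis.

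The promoters of 3 members are shown because Txnip fell furthest of the members at 4 h, Arrdc4 is its nearest relative among the members and did not pass the test at that time, and Irs2 did not fall past the test in either arm at 4 h. They are the 250 bases before the annotated start, 5′ to 3′ on the strand of the gene, from RefSeq on GRCm38.p6, with the gene's match to the letters below in capitals. All 10 members had a promoter in that table.
Txnip, chr3:96557707-96557956, plus strand: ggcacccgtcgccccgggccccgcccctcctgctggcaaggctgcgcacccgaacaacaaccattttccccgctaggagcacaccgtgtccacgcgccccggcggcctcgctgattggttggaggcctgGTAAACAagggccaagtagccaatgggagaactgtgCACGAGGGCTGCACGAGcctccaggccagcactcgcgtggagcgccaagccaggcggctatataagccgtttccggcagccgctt
Arrdc4, chr7:68749239-68749488, minus strand: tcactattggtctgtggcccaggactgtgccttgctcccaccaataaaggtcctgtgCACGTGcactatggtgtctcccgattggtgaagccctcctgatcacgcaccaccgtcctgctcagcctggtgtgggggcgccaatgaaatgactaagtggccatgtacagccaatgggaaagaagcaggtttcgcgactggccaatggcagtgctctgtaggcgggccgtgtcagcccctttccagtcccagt
Irs2, chr8:11008930-11009179, minus strand: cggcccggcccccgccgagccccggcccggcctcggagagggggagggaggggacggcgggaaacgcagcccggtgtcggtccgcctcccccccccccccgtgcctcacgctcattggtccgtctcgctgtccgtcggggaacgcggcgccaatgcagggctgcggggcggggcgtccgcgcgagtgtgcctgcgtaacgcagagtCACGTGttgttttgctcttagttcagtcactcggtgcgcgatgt
Txnip held the FoxO core GTAAACA, at position -121 from the start, and at position -85 a tandem of the carbohydrate response kind, which is CACGNG repeated after a gap of 5 bases. The FoxO core was present in 3.65% of the 32851 promoters of the same window of 300 bases, from 250 before to 50 after the start, and in 1 of the 10 members. The tandem was present in 0.0487% of them, or 16 promoters, and again in 1 member. The E-box CACGTG, in capitals in Arrdc4 and Irs2, was present in 7.15% of all promoters and in 4 of the 10 members, which were Arrdc4, Irs1, Irs2 and Bcl6. Both strands were searched, an E-box can lie inside the tandem pattern, the motifs were chosen with the sequences in view, and a match describes the letters only.

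At 4 h the main changes were a fall of Txnip, Pik3ip1, Arrdc3, Foxo3 and Foxo1 and a rise of Bcl6, in sham and in exposed cells. Irs1 did not pass the test. Irs2 passed it in exposed cells, as higher by 0.17, and this call was lost with quantile normalization, among other settings. In sham cells 9 of the 12 member probes passed the limma test with an adjusted p under 0.05 between 4 h and 0 h, 8 of them lower and 1 higher, against 59.1% of all 37687 probes, of which 29.7% were lower and 29.4% higher. In nsPEF cells 10 passed, 8 lower and 2 higher, against 61.3% of all probes, 27.8% lower and 33.5% higher. Txnip, Foxo1 and Foxo3 stood with 2 probes each among the 8 lower. By gene, each taken by its brightest tested probe, 5 of 9 were lower and 1 higher in sham cells. In nsPEF cells 5 were lower and 2 higher. Of all 16843 genes 65.4% were called in sham and 67.7% in nsPEF cells. The median difference over the 12 probes was -0.66 in sham and -0.68 in nsPEF cells, beside -0.006 and 0.091 over all probes. A difference of at least 2-fold was seen in 6 of the 12 in each arm, beside 18.5% of all probes in sham and 21.9% in nsPEF cells. Both probes of Txnip were among the 6 in each arm. Called shares close to the background are no result about the members, and the direction of the members was read only from their own values. The comparisons with 0 h share the same 0 h arrays. Markers of cell types moved over the same interval, and their part in these values was not tested. Of 5 Sertoli cell markers 2 were tested, and both were lower at 4 h, with a median of -1.25 in nsPEF cells. Csf1r, the tested one of 3 macrophage markers, was higher by 1.65 in sham and by 2.13 in nsPEF cells. Of 9 Leydig cell markers 3 were tested, of which 1 was higher and 1 lower in sham cells, and 2 were higher in nsPEF cells. Pecam1, the tested one of 2 endothelial markers, was lower, at -0.40 in sham and -0.72 in nsPEF cells. All 4 fibroblast or myoid markers were tested, with 1 higher and 1 lower in sham cells and 1 higher and 2 lower in nsPEF cells. Of 3 germ cell markers 2 were tested, with 1 higher and 1 lower in sham cells and 1 lower in nsPEF cells.

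**Figure D1:**
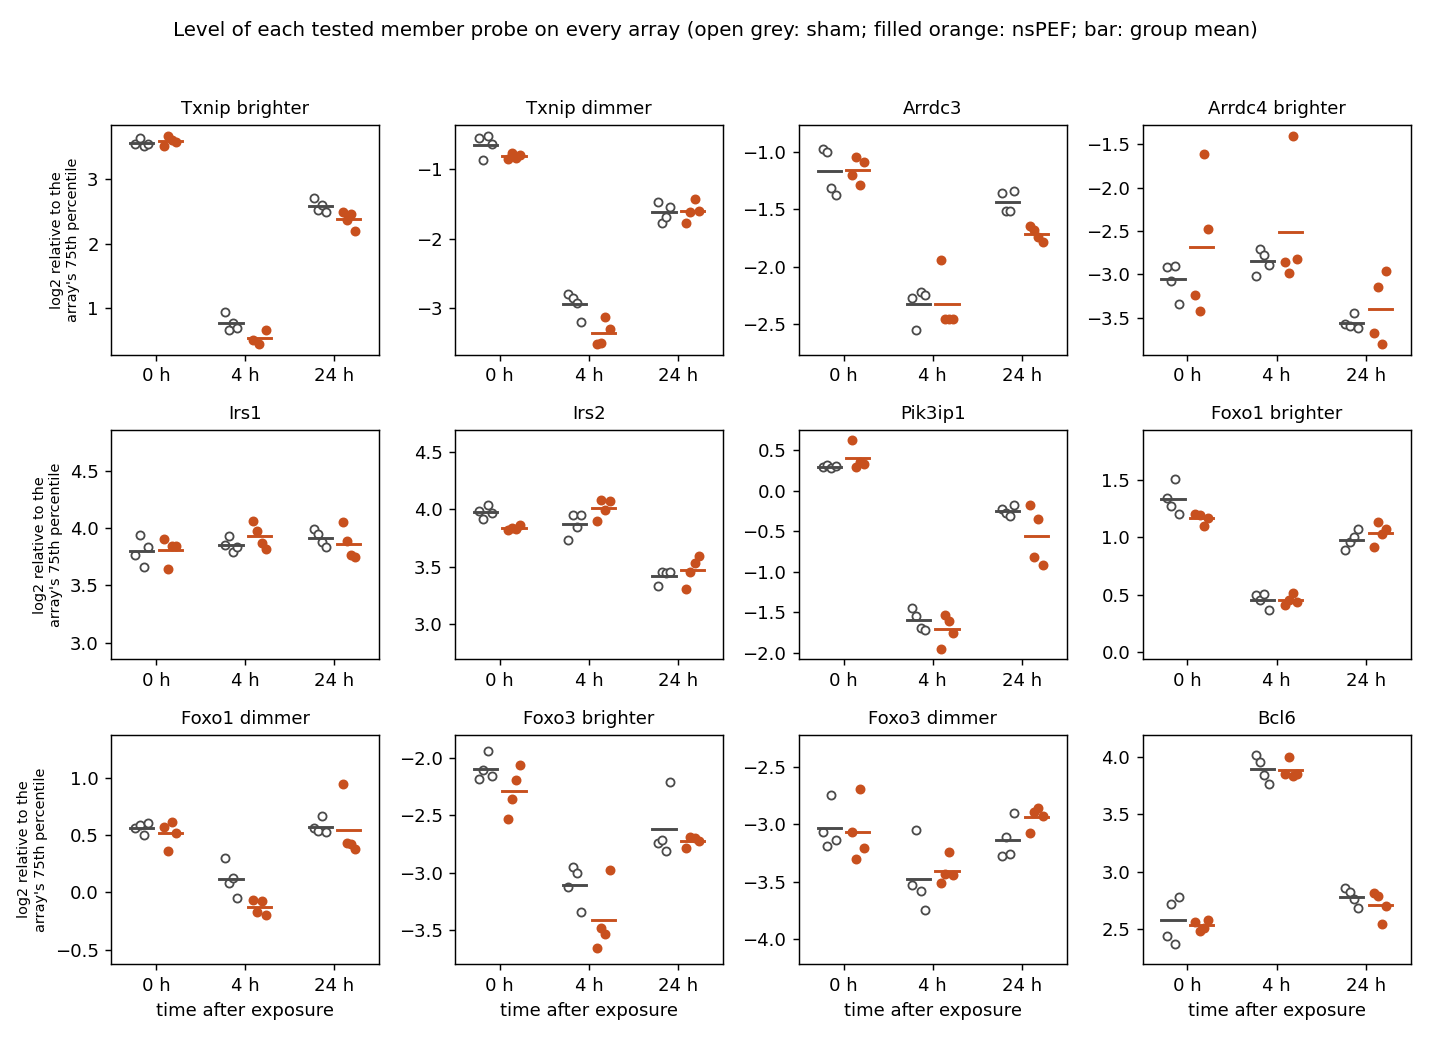
Level of each of the 12 tested member probes on every array, as log2 relative to the array's 75th percentile (vertical axis), at 0, 4 and 24 h (horizontal axis). Open grey circles are sham and filled orange circles nsPEF arrays, and the bars are group means. Each panel has its own vertical range of at least 2 log2 units. The brighter Txnip probe lies near 3.56 at 0 h and below 1 at 4 h in both arms, Bcl6 moves the other way, and Irs1 lies between 3.64 and 4.06 throughout.

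Txnip, the thioredoxin-binding alpha-arrestin, was read by a bright and a dim probe of the same transcript. On the brighter probe the S0 arrays stood at 3.55, 3.64, 3.52 and 3.55 and the S4 arrays at 0.95, 0.67, 0.78 and 0.69. The E0 arrays stood at 3.52, 3.67, 3.60 and 3.57, and 3 E4 arrays at 0.51, 0.45 and 0.67, the fourth having been marked as an outlier by the scanner software and left out. At 24 h the values were 2.71, 2.52, 2.59 and 2.49 in S24 and 2.49, 2.36, 2.45 and 2.19 in E24. Every 4 h array thus lay below every 24 h array, and these below every 0 h array. The 4 h minus 0 h difference was -2.79 on the log2 scale in sham cells (SE 0.075, adjusted p = 2.03e-16), or 6.92-fold lower, and -3.05 (SE 0.081, adjusted p = 1.5e-16) or 8.28-fold lower in nsPEF cells. Among 16843 genes, each taken by its brightest tested probe and ordered from the lowest difference, Txnip ranked 87 in sham and 46 in nsPEF cells. From 4 to 24 h the probe rose by 1.81 in sham (adjusted p = 1.63e-13) and by 1.83 in nsPEF cells (adjusted p = 4.37e-13). At 24 h it was still lower than at 0 h, by -0.98 in sham (adjusted p = 7.3e-09) and -1.22 in nsPEF cells (adjusted p = 3.17e-10), and under scaling on the spike-in RNA it remained lower by -0.28 (adjusted p = 0.0229) and -0.73 (adjusted p = 7.06e-06).

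The dimmer Txnip probe moved in the same directions over time. Its S0 arrays stood at -0.55, -0.87, -0.52 and -0.64, its S4 arrays at -2.80, -2.84, -2.92 and -3.19, and its E4 arrays at -3.51, -3.49, -3.12 and -3.30. It differed by -2.29 at 4 h from 0 h in sham (adjusted p = 1.25e-13) and by -2.54 in nsPEF cells (adjusted p = 2.26e-14), and with the normexp background by -1.43 and -1.26. Of the members, this probe alone passed the test between nsPEF and sham at any time, at 4 h, where the difference of nsPEF minus sham was -0.42 (SE 0.10, adjusted p = 0.0315). The E4 and S4 arrays overlapped and the exact permutation test, two-sided, gave p = 0.0571, with 0.0286 the smallest it allows for 4 against 4. The brighter probe differed by -0.23 at 4 h (adjusted p = 0.118). The call on the dimmer probe was lost with spike-in scaling (adjusted p = 0.19), with the percentile over probes detected on all arrays (0.0684), on the 8 arrays of its slide alone (0.172) and without any 1 replicate number (0.0635 to 0.203), and with the normexp background its difference turned to 0.035. That call held in 27 of 41 settings, and with quantile normalization the difference was -0.67 (adjusted p = 0.000975). The brighter probe passed in 1 of 41 settings, centring in bands of rows (-0.33, adjusted p = 0.0244).

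Arrdc3, an alpha-arrestin adaptor that links receptors to ubiquitin ligases, also fell at 4 h. Its S0 values were -0.98, -1.0, -1.32 and -1.37 and its S4 values -2.27, -2.56, -2.22 and -2.24, without overlap. The difference was -1.16 (SE 0.11, adjusted p = 2.15e-08) in sham and -1.17 (adjusted p = 1.71e-08) in nsPEF cells, and with the normexp background -0.77 and -0.67. At 24 h S24 values lay from -1.52 to -1.34 and E24 values from -1.79 to -1.64, and these groups did not overlap. The nsPEF difference of -0.28 at 24 h did not pass the test over all probes (adjusted p = 0.153, exact permutation p = 0.0286). Against 0 h the 24 h level was lower in nsPEF cells (-0.56, adjusted p = 0.000574, but -0.075 and adjusted p = 0.649 with spike-in scaling), whereas in sham cells it differed by -0.27 (adjusted p = 0.0739) and with spike-in scaling by 0.44 (adjusted p = 0.00934).

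Arrdc4, the relative of Txnip with the E-box shown above, did not pass the test at 4 h. Its brighter probe stood at -2.91, -3.07, -2.91 and -3.34 in S0 and -3.02, -2.70, -2.78 and -2.90 in S4, and these arrays overlapped. Its nsPEF arrays spread widely, from -3.43 to -1.62 in E0 and from -2.99 to -1.40 in E4, where replicate 3 was the highest in each group. The 4 h difference was 0.21 in sham (SE 0.34, 95% interval -0.50 to 0.91, adjusted p = 0.633) and 0.17 in nsPEF cells (adjusted p = 0.683). From 4 to 24 h it fell in nsPEF cells, with a difference of -0.88 (adjusted p = 0.032), and without replicate 3 of E4 this was -0.51 (adjusted p = 0.159). The call was also lost without replicate 1 or 3 of E24 (adjusted p = 0.0806 and 0.0944) and with spike-in scaling (-0.48, adjusted p = 0.24), and with the normexp background the difference was -0.34. In sham cells that difference was -0.71 and missed the threshold (adjusted p = 0.0802), although the S24 arrays all lay below the S4 arrays. A second Arrdc4 probe, for another RefSeq transcript, was well above background on 2 of 24 arrays, 1 in S24 and 1 in E24, and was not tested.

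Irs1 and Irs2, the adaptors between the insulin receptor and phosphoinositide 3-kinase, were read at high intensities in all groups. Irs1 stood at 3.76, 3.94, 3.66 and 3.83 in S0, at 3.85, 3.93, 3.79 and 3.83 in S4 and at 3.99, 3.95, 3.88 and 3.83 in S24. The arrays overlapped in all 9 comparisons, and none of the differences of Irs1 passed the test, the smallest adjusted p being 0.18. At 4 h against 0 h its difference was 0.053 in sham cells, with a 95% interval of -0.11 to 0.21. From 4 to 24 h in sham cells its difference of 0.062 became 0.26 (adjusted p = 0.00576) with quantile normalization, 0.23 (adjusted p = 0.00961) with the percentile over probes detected on all arrays and 0.72 (adjusted p = 3.98e-06) with spike-in scaling. With spike-in scaling its 24 h level was higher than that at 0 h, by 0.82 in sham (adjusted p = 7.35e-07) and 0.54 in nsPEF cells (adjusted p = 0.000163), but relative to the median of all probes on that scale by 0.12 and by -0.009.

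Irs2, a known FoxO target as well as an adaptor, was higher at 4 h in nsPEF cells, did not pass the test at 4 h in sham cells, and was lower at 24 h in both on this scale. Its arrays stood at 3.98, 3.91, 4.04 and 3.97 in S0, at 3.73, 3.95, 3.85 and 3.95 in S4 and at 3.33, 3.45, 3.45 and 3.45 in S24. In nsPEF cells they stood at 3.82, 3.83, 3.83 and 3.87 in E0, at 3.90, 4.08, 3.99 and 4.07 in E4 and at 3.30, 3.45, 3.53 and 3.59 in E24. All 24 h arrays lay below all 0 h and 4 h arrays. The sham difference at 4 h was -0.11 (SE 0.061, adjusted p = 0.137), with a 95% interval of -0.24 to 0.019, and it passed the test with quantile normalization (-0.23, adjusted p = 0.00448). In nsPEF cells Irs2 was higher at 4 h by 0.17 or 1.13-fold (adjusted p = 0.0195), and this was lost with quantile normalization (0.034, adjusted p = 0.668), with the percentile over probes detected on all arrays, with normexp, with centring in bands of rows and without replicate 2, 3 or 4 in all groups. The median of all probes rose by 0.091 in the same comparison, and relative to that median Irs2 was higher by 0.082. At 24 h it was lower than at 0 h, by -0.56 in sham (SE 0.061, adjusted p = 6.42e-07) and by -0.37 in nsPEF cells (adjusted p = 7.88e-05). With spike-in scaling these differences turned to 0.15 (adjusted p = 0.0326) and 0.11 (adjusted p = 0.101), on a scale where the median of all probes rose by 0.70 and 0.54, and relative to that median they were -0.56 and -0.43. Between nsPEF and sham its differences were -0.14 at 0 h, 0.14 at 4 h and 0.047 at 24 h, and none passed the test (adjusted p = 0.437, 0.195 and 0.677), while with spike-in scaling the 4 h difference was 0.33 (adjusted p = 0.00369).

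**Figure D2:**
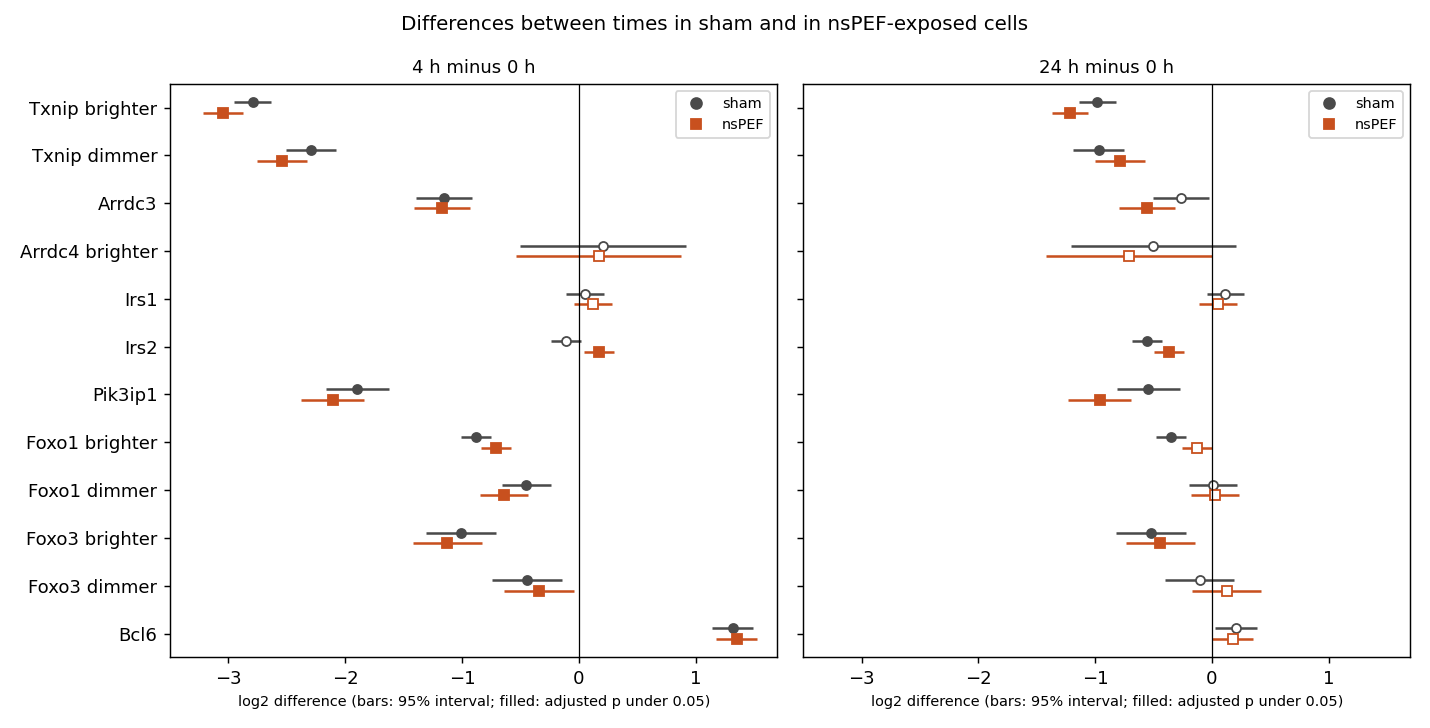
Log2 differences of the 12 tested member probes (horizontal axis) at 4 h minus 0 h (left) and 24 h minus 0 h (right), for sham (grey circles) and nsPEF (orange squares), with 95% intervals as bars and filled marks where the adjusted p was under 0.05. At 4 h the brighter Txnip probe is at -2.79 and -3.05 and Bcl6 at 1.32 and 1.35, and at 24 h the marks of Txnip, Pik3ip1 and Bcl6 lie closer to 0 than at 4 h, and those of Irs2 lie further from it in both arms, at -0.56 and -0.37.

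Pik3ip1, a membrane protein that restrains phosphoinositide 3-kinase and a known FoxO target, fell the most after Txnip among the members. Its S0 values were 0.29, 0.31, 0.28 and 0.30 and its S4 values -1.44, -1.55, -1.70 and -1.71. Its E0 values were 0.62, 0.29, 0.35 and 0.33 and its E4 values -1.95, -1.54, -1.61 and -1.75. In both arms the 4 h arrays lay below the 0 h arrays without overlap. The difference was -1.90 in sham (SE 0.13, adjusted p = 6.67e-11), or 3.72-fold lower, and -2.11 (adjusted p = 1.2e-11) or 4.31-fold in nsPEF cells. At 24 h it stood from -0.31 to -0.18 in S24 and from -0.92 to -0.18 in E24, and it was lower than at 0 h by -0.54 in sham (adjusted p = 0.00227) and by -0.96 in nsPEF cells (adjusted p = 5.71e-06). With spike-in scaling the former was 0.16 (adjusted p = 0.314) and the latter -0.48 (adjusted p = 0.00595). The nsPEF difference at 24 h was -0.32 and did not pass the test (adjusted p = 0.149, 0.0219 without replicate 1 of E24), and the groups overlapped.

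Foxo1 and Foxo3, the transcription factors that Akt sends out of the nucleus, were lower at 4 h on both of their probes. On the brighter Foxo1 probe the S0 arrays stood at 1.34, 1.28, 1.51 and 1.20 and the S4 arrays at 0.49, 0.45, 0.50 and 0.36, a difference of -0.88 (SE 0.062, adjusted p = 1.38e-10). The E0 arrays stood at 1.21, 1.19, 1.09 and 1.17 and the E4 arrays at 0.41, 0.45, 0.52 and 0.44, a difference of -0.71 (adjusted p = 3.51e-09). No array of the 4 h groups reached the 0 h range. The dimmer Foxo1 probe fell by 0.45 in sham (adjusted p = 0.000545) and by 0.64 in nsPEF cells (adjusted p = 9.74e-06). At 24 h the probes disagreed in sham cells, the brighter lying below 0 h by -0.35 (adjusted p = 0.000164) and the dimmer at 0.006 (adjusted p = 0.977), and with spike-in scaling the brighter was higher by 0.35 (adjusted p = 0.000397). On the dimmer probe the E4 arrays, from -0.20 to -0.071, all lay below the S4 arrays, from -0.049 to 0.30, and the difference of -0.24 did not pass the test over all probes (adjusted p = 0.167, but 0.04 with centring in bands of rows and 0.0473 without replicate 1 of E24).

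Foxo3 was dimmer than Foxo1 in intensity, which does not rank the genes because probes differ in their response. Its brighter probe stood at -2.18, -2.11, -1.94 and -2.16 in S0 and at -3.13, -2.95, -3.00 and -3.35 in S4. The difference was -1.01 (SE 0.14, adjusted p = 3.36e-06) or 2.01-fold in sham and -1.13 (adjusted p = 7.59e-07) in nsPEF cells, and with the normexp background -0.66 and -0.51. Its dimmer probe gave -0.44 (adjusted p = 0.0111) and -0.34 (adjusted p = 0.0438) with overlapping groups, and these calls were lost without replicate 1, 3 or 4 in all groups (adjusted p from 0.0648 to 0.0811 in sham and from 0.07 to 0.183 in nsPEF cells). The nsPEF call was lost with spike-in scaling too (adjusted p = 0.152). At 24 h the brighter probe was lower than at 0 h by -0.52 in sham (adjusted p = 0.00673) and -0.44 in nsPEF cells (adjusted p = 0.0171), and with spike-in scaling these were 0.18 (adjusted p = 0.273) and 0.041 (adjusted p = 0.814). Without replicate 2 or 3 in all groups the sham call was lost (adjusted p = 0.0678 and 0.117), as was the nsPEF call (0.0685 and 0.0938). Between nsPEF and sham at 4 h the brighter probe differed by -0.30 (adjusted p = 0.225) and the dimmer by 0.069 (adjusted p = 0.817). The brighter passed in 2 of 41 settings, quantile normalization (-0.56, adjusted p = 0.0198) and without replicate 4 in all groups (-0.53, adjusted p = 0.0209).

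Sesn3, a sestrin that is induced by FoxO proteins in other cells, was read by a single probe that rose well above background on 0 of 24 arrays, and the probe was neither tested nor given a fold.

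Bcl6, a zinc-finger transcriptional repressor and a known FoxO target, rose at 4 h while the members described above fell or did not pass the test, except Irs2 in nsPEF cells. Its S0 arrays stood at 2.44, 2.72, 2.37 and 2.78 and its S4 arrays at 4.02, 3.96, 3.85 and 3.76. Its E0 arrays stood at 2.57, 2.48, 2.51 and 2.58 and its E4 arrays at 3.85, 4.00, 3.83 and 3.85. The 0 h and 4 h arrays did not overlap in either arm. It rose by 1.32 (SE 0.085, adjusted p = 3.12e-11) or 2.49-fold in sham and by 1.35 (adjusted p = 2e-11) or 2.55-fold in nsPEF cells. By 24 h it had fallen again by 1.11 in sham (adjusted p = 5.99e-10) and by 1.17 in nsPEF cells (adjusted p = 2.89e-10), or by 0.46 and 0.77 with spike-in scaling, and it stood 0.21 and 0.18 above 0 h (adjusted p = 0.0641 and 0.0971; the former 0.0488 with the replicate block), values that passed the test with spike-in scaling (0.91 and 0.66), quantile normalization and other settings. On the spike-in scale the median of all probes rose by 0.70 and 0.54, and relative to that median Bcl6 stood 0.21 and 0.12 above 0 h.

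Over the later intervals the counts were as follows. From 4 to 24 h, 10 of the 12 probes passed in sham cells, 8 higher and 2 lower, against 57.7% of all probes, 27.8% higher and 29.9% lower, and 11 passed in nsPEF cells, 8 higher and 3 lower, against 56.6%, of which 27.5% were higher and 29% lower. The 8 higher were both probes of Txnip, Foxo1 and Foxo3 with Arrdc3 and Pik3ip1 in each arm. The call of the dimmer Foxo3 probe in sham cells, 0.34 (adjusted p = 0.0486), held in 13 of 40 settings, and it was lost with quantile normalization (adjusted p = 0.135), with normexp (0.162), in the plain linear model (0.0549) and without replicate 1, 3 or 4 in all groups (0.0595 to 0.425). Between 24 h and 0 h, 6 probes were lower and 0 higher in sham cells, against 36.6% of all probes called, that is 16.9% called higher and 19.7% called lower. In nsPEF cells 6 were again lower and 0 higher, against 42.2% of all probes called, 23.9% higher and 18.3% lower. The lower probes were both of Txnip, those of Irs2 and Pik3ip1 and the brighter of Foxo3 in each arm, with the brighter Foxo1 probe in sham and Arrdc3 in nsPEF cells. The 24 h directions against 0 h depended on the scaling, since the spike-in probes put the median of all probes higher by 0.70 in sham and 0.54 in nsPEF cells. On that scale 7 member probes were called higher and 1 lower in sham cells, and 5 higher and 3 lower in nsPEF cells. The share of all probes called higher or lower on that scale is not given here. With such a shift of the median, these counts are no result about the members. The lower ones were the brighter probe of Txnip in sham cells, and both of Txnip with Pik3ip1 in nsPEF cells. The higher ones were Irs1, both of Foxo1, the dimmer of Foxo3 and Bcl6 in each arm, with Arrdc3 and Irs2 in sham cells.

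The comparison of nsPEF with sham at the same time gave a single member call. At 0 h 0 of the 12 probes passed the limma test, against 0.127% of all probes, 0.0716% higher and 0.0557% lower. At an unadjusted p under 0.05 in limma stood 2 of the 12, against 10% of all probes. In a plain linear model 0 passed by adjusted p, and the unadjusted p of that model was not counted. At 4 h 1 passed, the dimmer Txnip probe, with 5 at an unadjusted p under 0.05, against 3.31% of all probes, of which 1.6% were lower, and 21% at that unadjusted p. At 24 h 0 passed, against 4.82% of all probes, of which 2.64% were higher and 2.18% lower. At an unadjusted p under 0.05 in limma stood 3, against 22.1% of all probes. In the plain linear model 0 passed by adjusted p. The differences ran from -0.42 to 0.33 at 4 h and from -0.32 to 0.20 at 24 h. Over the 3 times the 95% intervals of Irs1 lay between -0.21 and 0.24, and those of Arrdc4 between -0.54 and 1.08. The interaction of time and exposure passed for 0 members in the limma F test, against 0.377% of all probes, and the lowest adjusted p was that of Irs2, 0.188. At an unadjusted p under 0.05 in that test stood 3, against 16.7% of all probes. In the plain linear model 0 passed the interaction by adjusted p.

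**Figure D3:**
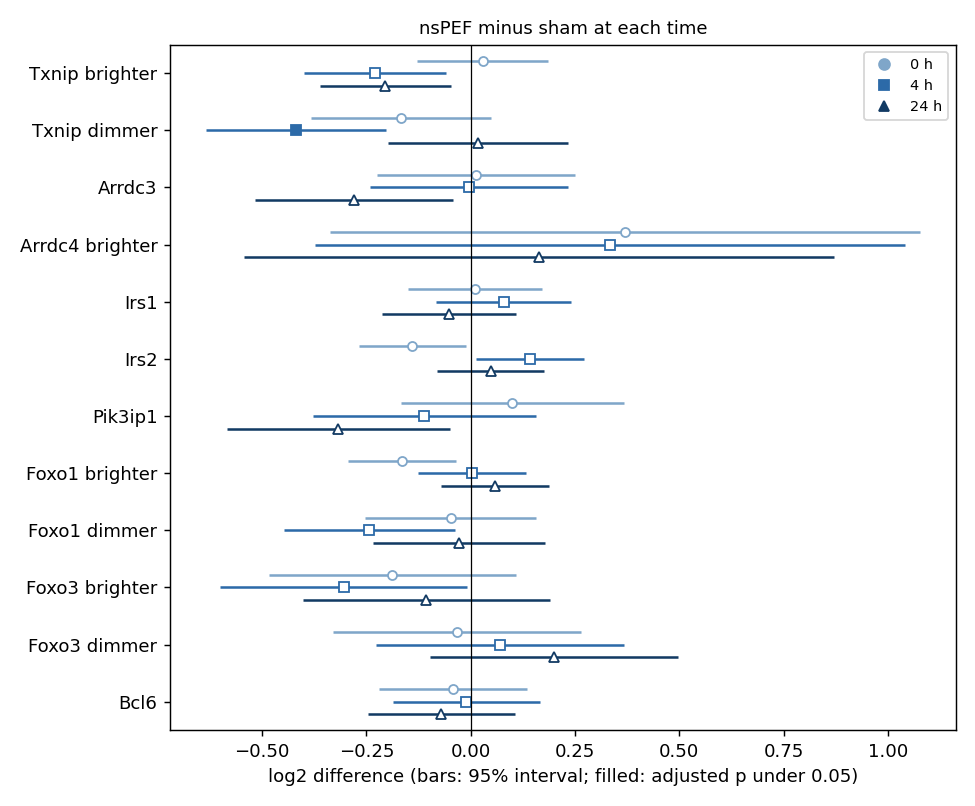
Log2 difference of nsPEF minus sham (horizontal axis) for the 12 tested member probes at 0 h (light circles), 4 h (squares) and 24 h (dark triangles), with 95% intervals as bars and filled marks where the adjusted p was under 0.05. A single mark is filled, the dimmer Txnip probe at 4 h at -0.42, and the widest bars are those of Arrdc4.

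Other genes of the same circuits were taken from lists, each gene by its brightest tested probe, beside 65.4% of all 16843 genes called between 4 h and 0 h in sham cells and a median difference of -0.040. Of 29 other FoxO targets and family members 24 were tested, and at 4 h in sham cells 15 were lower, 8 higher and 1 did not pass, with a median of -0.50. In nsPEF cells the counts were again 15, 8 and 1, with a median of -0.46, beside 67.7% called and 0.047 for all genes. Fbxo32, a ubiquitin ligase of muscle wasting, fell by 2.49 in sham cells (adjusted p = 1.96e-10). In nsPEF cells it fell by 2.76 (adjusted p = 3.93e-11), but it was not well above background on any E4 array, and the size of this fall is uncertain. These values hold for the main background correction, and with normexp the differences were -1.21 in sham and -1.01 in nsPEF cells. Ccng2, an atypical cyclin of resting cells, fell by 2.21 in sham cells (adjusted p = 5.88e-14) and rose by 2.75 from 4 to 24 h (adjusted p = 4.83e-15). Rbl2, a pocket protein of the resting state, fell by 2.19 in sham cells (adjusted p = 1.1e-10) and by 2.45 in nsPEF cells (adjusted p = 1.8e-11; -1.44 with normexp). Sesn1, a sestrin like Sesn3, fell by 2.08 in sham (adjusted p = 2.12e-16) and by 2.32 in nsPEF cells (adjusted p = 3.97e-17). Between nsPEF and sham at 4 h 1 gene of this list was higher and 1 lower, and at 24 h 0 and 2, beside 4.03% and 5.74% of all genes called.

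Of 33 genes from the insulin receptor to Akt 32 were tested, and at 4 h in sham cells 10 were higher, 11 lower and 11 did not pass, with a median of -0.073. In nsPEF cells 9 were higher, 11 lower and 12 did not pass. Of all genes 65.4% were called in sham and 67.7% in nsPEF cells, and the counts are not read as a result about the list. Between nsPEF and sham 1 was higher and 0 lower at 4 h, and 1 higher and 1 lower at 24 h, beside 4.03% and 5.74% of all genes called. Grb14, an adaptor that inhibits the insulin receptor, fell by 2.10 (SE 0.33, adjusted p = 1.44e-05), though it was well above background on 1 of 4 S4 arrays, and its difference was -0.70 with the normexp background. Insr, the insulin receptor, fell by 0.89 at 4 h in sham cells (adjusted p = 4.04e-08) and rose by 1.19 from 4 to 24 h (adjusted p = 7.1e-10), and with normexp these were -0.57 and 0.62. Pik3r2, a regulatory subunit of phosphoinositide 3-kinase, fell by 0.96 in sham cells at 4 h (adjusted p = 6.75e-10) and rose by 1.09 from 4 to 24 h in nsPEF cells (adjusted p = 1.29e-10). Sgk1, a kinase related to Akt, fell by 0.64 at 4 h in sham cells (adjusted p = 7.06e-07) and was lower at 24 h than at 0 h in nsPEF cells by -1.83 (adjusted p = 9.14e-13).

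Of 18 genes of the thioredoxin system, of glucose sensing by MondoA and of the alpha-arrestins 17 were tested, and at 4 h in sham cells 7 were higher, 5 lower and 5 did not pass, with a median of 0.049. In nsPEF cells 8 were higher, 5 lower and 4 did not pass. Of all genes 65.4% were called in sham and 67.7% in nsPEF cells, and the counts are not read as a result about the list. Between nsPEF and sham 0 passed at 4 h, and 1 was higher at 24 h, beside 4.03% and 5.74% of all genes called. Hk2, a hexokinase, rose by 1.78 in sham (adjusted p = 1.08e-13) and by 1.78 in nsPEF cells (adjusted p = 9.27e-14). Slc2a1, the glucose transporter whose uptake Txnip lowers, rose by 1.65 in sham cells (adjusted p = 6.02e-14) and by 1.71 in nsPEF cells (adjusted p = 3.39e-14). Txnrd1, which reduces thioredoxin, rose by 1.30 (adjusted p = 4.95e-13) and by 1.44 (adjusted p = 9.15e-14). Arrdc1, another alpha-arrestin, fell by 1.13 in sham cells (adjusted p = 9.88e-13). Of 6 Bcl6 corepressor genes and relatives 5 were tested, of which 2 were lower at 4 h in sham cells and 3 did not pass. These were Bcor at -0.61 (adjusted p = 1.05e-07) and Bcorl1 at -0.56 (adjusted p = 5.62e-05), both in sham cells. In nsPEF cells 2 of the 5 were again lower and 3 did not pass, and between nsPEF and sham 0 passed at 4 h and 0 at 24 h. The shares of all genes called were again 65.4% and 67.7% over time and 4.03% and 5.74% between nsPEF and sham. These counts, too, are not read as a result about the list. From 4 to 24 h Bcor rose by 0.70 in sham cells (adjusted p = 1.76e-08; 1.35 with spike-in scaling), and Bcorl1 rose by 0.84 in nsPEF cells (adjusted p = 3.42e-07; 0.50 with normexp). Hdac3, the deacetylase of that complex, rose by 0.27 from 4 to 24 h in sham cells (adjusted p = 0.00157; 0.92 with spike-in scaling).

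**Figure D4:**
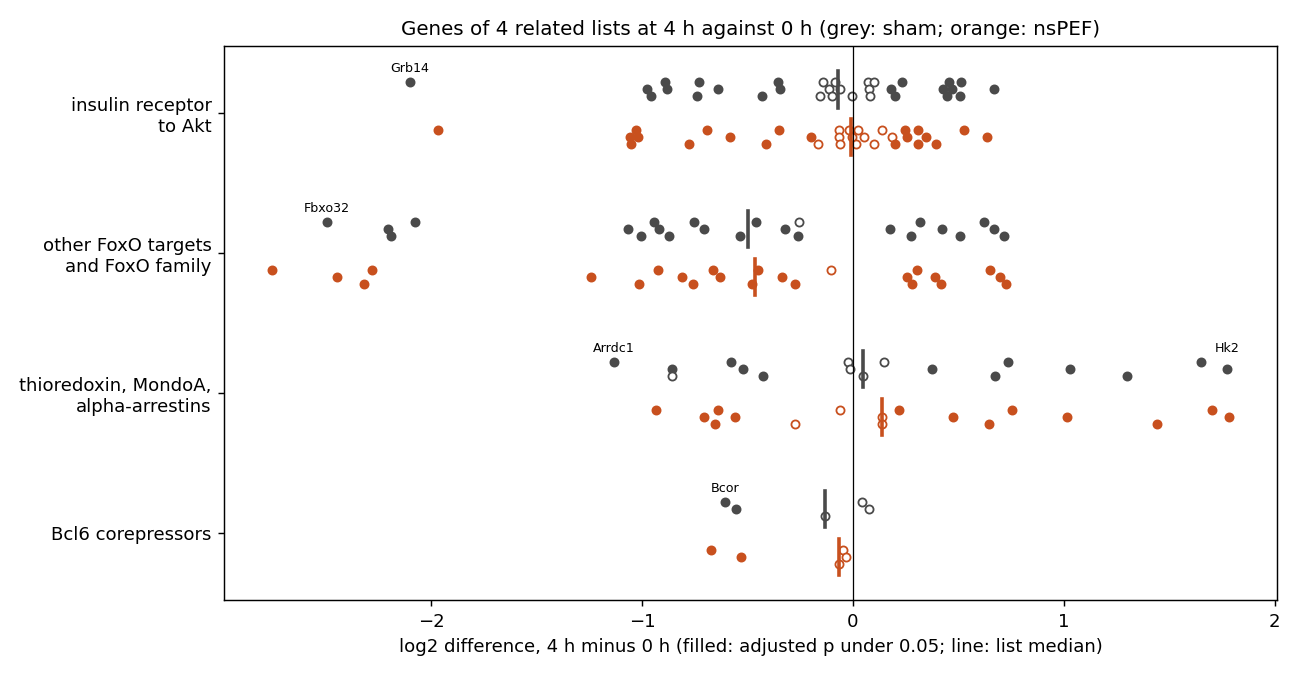
Log2 difference at 4 h minus 0 h (horizontal axis) of the tested genes of 4 lists, in sham (grey) and nsPEF cells (orange), with filled points where the adjusted p was under 0.05 and the list median as a line. Fbxo32 lies left of -2 among the FoxO targets, and Hk2 lies at 1.78 among the glucose and thioredoxin genes.

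The profile over the 6 groups was also compared between genes, by the root mean square difference of the mean-centred group levels over 16842 other genes. Nearest to Txnip were Zc4h2 at 0.077, Ccrl2 at 0.082, Irgm2 at 0.088, Dpysl5 at 0.10 and Dlx4os at 0.107 log2 units. Among the members Pik3ip1 came nearest, at rank 133 and 0.38 log2 units, followed by Arrdc3 at 936, Foxo3 at 1217 and Foxo1 at 2093, while Bcl6 stood at 15820. Nearest to Irs2, a flatter profile, were Defb42 at 0.039, Mxra7 at 0.039, Minar2 at 0.041, 2410006H16Rik at 0.042 and Gm8801 at 0.048. These distances rest on the same 24 arrays and 3 slides and are descriptions.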

How the data were processed

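Gene expression was measured on 24 one-colour Agilent arrays. Per the file headers and the methods, the authors read the scans with Feature Extraction 12.0, and the deposited scanner intensities are background-subtracted, detrended and not scaled between arrays. The deposited series table holds log2 values, which the authors shifted to the 75th percentile and set against each probe's median, and it served as an alternative, with its 14 member probes matched by probe ID (lowest r with the scanner values 0.999). Its scale and direction were the same as in the scanner values, its column medians ran from -0.20 to 0.29, and 0 columns belonged to no sample.

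The mean of unmarked spots was taken for each of 56605 probes, brought to log2, and the array's 75th percentile over probes was subtracted. Probes entered the test when 2 or more of the 4 arrays in some group were marked well above background, which left 37687. Means of the 6 groups were fitted to the 24 arrays in limma (version 3.58.1, R version 4.3.3, data.table version 1.17.8), Benjamini-Hochberg adjustment ran over these 37687 probes, and an adjusted p under 0.05 was called. The two-way analysis named in the methods was replaced by these contrasts and an interaction F test, with a plain linear model as an alternative. The number of arrays limits the precision, and the labels call the replicates biological. Probes were named through RefSeq transcript accessions, which gave a symbol to 34566 probes. The array design states another genome build than the RefSeq promoters, which keep their own coordinates.

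The members and lists were chosen with earlier results of these data known. All member probes are named, together with the 4 genes of each list with the largest difference among called ones and the 5 genes nearest to Txnip and to Irs2, except that 1 listed gene is not reported here. Alternatives were quantile, spike-in and other percentile scalings, normexp background (offset 50), other filters, the deposited values, marked spots kept, centring in bands of 24 rows, a replicate block, a plain linear model, each slide alone and leaving out arrays. The percentile over spots was added after seeing the data.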

Additional observations from a re-analysis of the deposited data

Results flagged for a closer look

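In 83 groups of 4 arrays the distance of the highest or lowest array to its neighbour, divided by the range of the group, was set against Dixon's 95% critical value, which chance passes in about 1 of 20 groups, and 9 groups passed. For Arrdc3 these were the lowest S4 array (ratio 0.846) and the highest E4 array (0.999), the latter at -1.94 beside 3 arrays at -2.45. For Arrdc4 they were the highest E4 array of the brighter probe (0.896), at -1.40, and on the dimmer probe, which was near background, the highest S24 array (0.932) and the highest E24 array (0.890). Irs2 had a low S24 array (0.933), at 3.33 beside arrays at 3.45. The dimmer Foxo1 probe had a high E24 array (0.899), at 0.94, and the brighter Foxo3 probe a high S24 array (0.838), at -2.21. Bcl6 had a high E4 array (0.887), at 4.00. Their causes were not tested.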

How the results depend on the processing

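Each value was recomputed under the alternatives, and of 1776 values 1710 kept their side of the threshold, 25 lost the call, 29 gained it and 12 that were called under either setting changed sign, while 52 values among the 1710, uncalled under both settings, changed sign too. Member calls between nsPEF and sham at 4 h numbered 1, and became 2 with quantile normalization or no filter, 3 with centring in bands of rows and 0 with the percentile over probes detected on all arrays, with normexp or on 1 slide alone. At 24 h they became 1 without the filter, and for the interaction 1 with spike-in scaling. Without the filter the untested probes, that of Sesn3 and the dimmer of Arrdc4, entered as well. The calls added there at 4 and 24 h came from these probes near background and from no tested probe. With spike-in scaling the following changed sign: from 4 to 24 h Irs2 in sham (0.21) and Irs1 in nsPEF cells (0.34), from 0 to 24 h in sham cells Arrdc3 (0.44), Irs2 (0.15), Pik3ip1 (0.16), the brighter Foxo1 probe (0.35) and the Foxo3 probes (0.18 and 0.60), and in nsPEF cells Irs2 (0.11), the brighter Foxo1 probe (0.35) and the brighter Foxo3 probe (0.041). The dimmer Txnip probe changed sign between nsPEF and sham at 4 h with normexp (0.035). The causes were not tested. Without single arrays or replicate numbers the member calls ran from 8 to 9 for sham 4 h against 0 h, 9 to 11 for sham 24 h against 4 h, 5 to 8 for sham 24 h against 0 h, 8 to 10, 10 to 11 and 5 to 7 for the same intervals in nsPEF cells, 0 to 0, 0 to 2 and 0 to 1 between nsPEF and sham at 0, 4 and 24 h, and 0 to 0 for the interaction. The replicate numbers are shared between groups. Same-numbered arrays correlated with r from -0.040 to 0.093 in their deviations, with 0 of 12 over 0.1. Of these 12, 7 correlated best with their own number, and these values do not settle whether the numbers are pairs. The study describes the tests of a replicate as made on a shared cell suspension, but the labels do not tie the numbers to suspensions, and pairing remains possible. With the replicate block 9, 10 and 7 member probes passed in sham and 10, 11 and 6 in nsPEF cells for 4 against 0, 24 against 4 and 24 against 0 h, and 0, 1 and 0 between nsPEF and sham. The share of all probes called under each alternative, or without single arrays or replicate numbers, is not given here. The member counts under those settings are therefore no result about the members. Dim probes limited Arrdc4, Foxo3 and Sesn3. The dimmer Txnip probe was as limited at 4 h, with a mean intensity of 25.8 in E4, beside 25.1 for the brighter Foxo3 probe. The interaction could not be fitted on single slides.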
